A study of Mus musculus with 20 samples.

Results

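Follicular regulatory T (TFR) cells were set against regulatory T (Treg) cells of the same Peyer's patches (PP), the lymphoid follicles of the small intestine. The comparison rests on 4 of the 20 arrays of the series, 2 of PP TFR cells and 2 of PP Treg cells, chosen by their source labels. All mice carried the Foxp3 reporter allele written B6.Cg-Foxp3<tm1Mal> in the labels, in which GFP marks cells that transcribe Foxp3. Both sexes were mixed, each RNA sample came from a pool of 8 to 15 mice aged 8 to 14 weeks, and no label names an immunisation for the PP groups. Cells were sorted as CD4+ B220- GFP+, with the TFR gate set on high PD1 whatever the level of GL7 and the Treg gate on low or absent PD1 without GL7. Pdcd1, which encodes PD1, and Foxp3 were therefore part of the sort. RNA was hybridised to single-colour Agilent whole-mouse arrays, and values below are normalised intensities, in arbitrary units, with the 75th percentile of every array at 1500 and a floor of 20. Replicate 1 of both groups lay on the slide numbered 4 here and had 50 ng of input RNA, and replicate 2 lay on slide 5 and had 40 ng. On every slide the TFR sample held position 4 and the Treg sample position 3, so position and cell type cannot be told apart. The precision of every value is limited by having 2 arrays a group, and since these are bulk samples, fewer cells of a type and less RNA per cell cannot be told apart.

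Treg cells restrain immune responses and depend on the transcription factor Foxp3 and on interleukin-2, which signals through STAT5. TFR cells arise from Treg cells that switch on the follicular programme of TFH cells, with the repressor Bcl6 and the chemokine receptor Cxcr5, and that enter B cell follicles and germinal centres. In Peyer's patches germinal centres are driven continuously by gut microbes and food antigens, and retinoic acid made from vitamin A imprints gut homing on lymphocytes.

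Tested were the 22264 probes that had signal above background on each array of some group of 2, and 2184 of them were called (9.81%), 1476 higher (6.63%) and 708 lower (3.18%) in TFR cells, at a limma adjusted p under 0.05 and a log2 fold change of at least 1. They represent 1686 of 13874 tested genes. The spread came from the groups of the series that had 2 arrays, since a group of 1 array adds none. With only the 4 compared arrays in the fit no probe passed, although 3502 had an unadjusted p under 0.05. All 2184 called probes differed in the same direction on slides 4 and 5, and 1876 of them (85.9%) differed by at least 1 on the log2 scale on both slides. This is a description, since the probes were called on the mean of these same slide differences. The median size of the difference among called probes was 1.6 on slide 4 and 1.84 on slide 5. Across the tested probes, the TFR minus Treg differences of the slides correlated with r = 0.852, a description, since probes are not independent replicates and the slides differ in input. With slide as a block in the model, 3082 probes were called, without slide 4 1434 and without slide 5 1009.

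**Figure D1:**
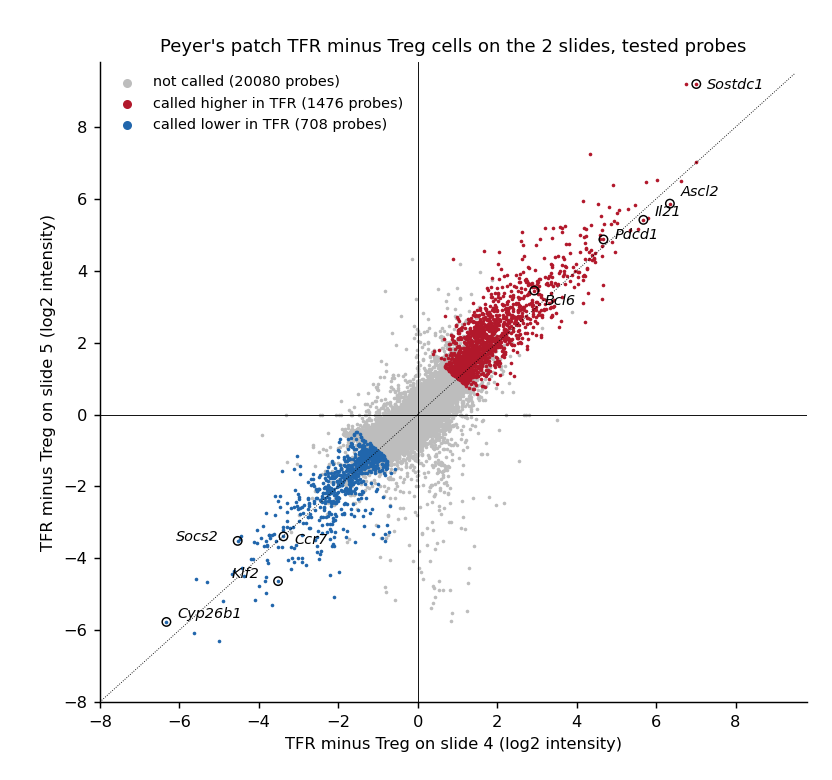
TFR minus Treg difference on the log2 scale on slide 4 (x axis) against slide 5 (y axis) for each tested probe, with called probes in colour. Called probes lie in the quadrants of equal sign, and the differences correlate with r = 0.852 over the 22264 tested probes.

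The slides differed in transcripts of other cells, in both sorted populations. The summed intensity of 13 B cell markers was 172571 and 13484 in TFR replicates 1 and 2, and 114616 and 15558 in Treg replicates 1 and 2. The 11 epithelial markers summed to 17645 and 2789 in TFR cells and to 44777 and 1841 in Treg cells. Both sums were thus several-fold higher on slide 4, yet none of the 13 B cell markers was called between TFR and Treg cells, and of the 9 tested epithelial markers only Epcam was called, at 842 and 1396 against 630 and 408. With slide as a block 1 B cell marker (Blk) and 3 epithelial markers (Epcam, Krt8 and Fabp2) were called. B cell genes were still measured on slide 5, with Cd79a at 351 in TFR and 1613 in Treg cells and Ms4a1 at 188 and 1101. Among the tested probes, 392 were at least 4-fold higher on slide 4 than on slide 5 in TFR and in Treg cells alike. A gap between the replicates of a group enters the spread that the test divides by, so that such probes could hardly be called. The 6 T cell markers summed to 808987 and 763550 in TFR cells and 584885 and 497079 in Treg cells, with none called. Of 6 markers of NK cells and innate lymphoid cells, Ncr1, Klre1 and Il5 stood at the floor of 20 on all 4 arrays, while Klrb1c, the gene of NK1.1, measured 4684 and 3644 in TFR against 449 and 203 in Treg cells (log2 fold change 3.78, adjusted p = 0.00416). Of the 3 tested, 2 were higher and 1 was lower in TFR cells on both slides, and only Klrb1c was called. The median over the 6 was 38.9 and 48.3 in TFR against 134 and 111 in Treg cells. The part of these transcripts in the results was not tested. Most values below are given on both slides, and some only as a log2 fold change over both.

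**Figure D2:**
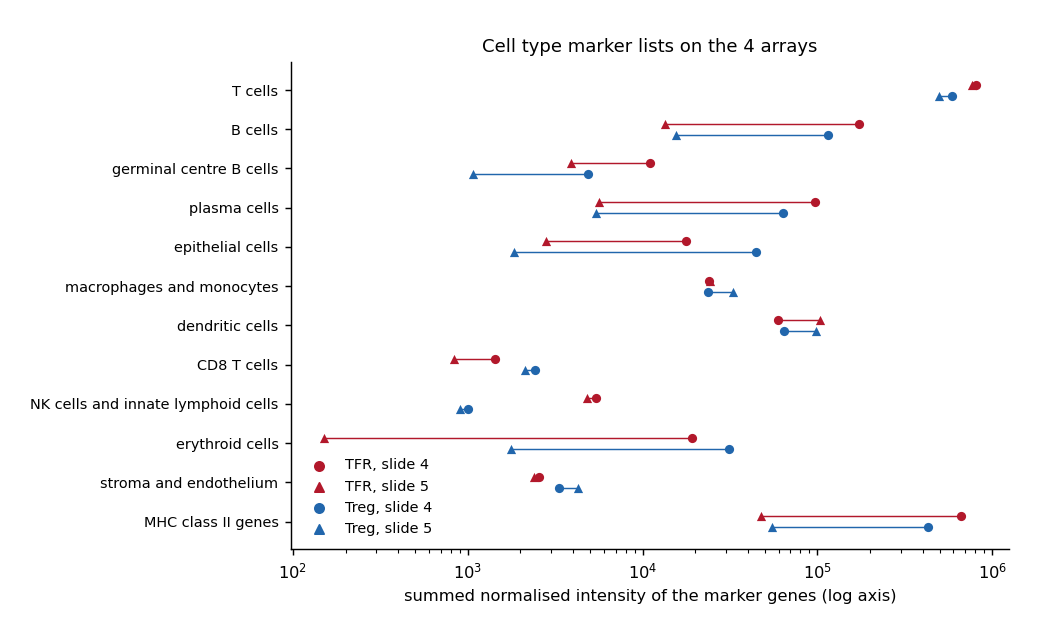
Summed normalised intensity (log axis) of the marker lists of other cell types in TFR and Treg cells, by slide. B cell, plasma cell, epithelial and erythroid sums are higher on slide 4 (replicate 1) than on slide 5 (replicate 2) in both populations, while T cell sums lie close together.

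Of 18 tested transcription factors of the follicular programme, 8 were higher, 1 was lower (Lef1) and 9 did not pass. The higher ones were Bcl6, Ascl2, Batf, Tox, Tox2, Cebpa, Hif1a and Vdr. The median log2 fold change was 1.56 against -0.05 over all tested probes. All gene lists were chosen with earlier results of these data known, so their counts and medians are descriptions. Bcl6, the repressor required for TFH and TFR cells, measured 53774 and 46063 in TFR cells and 7034 and 4213 in Treg cells, 3.19 ± 0.32 (SE) on the log2 scale (adjusted p = 7.79e-05). Ascl2, which switches on Cxcr5, stood at 17635 and 9858 against 216 and 169. The groups lay far apart for both genes, and Ascl2 had the larger fold change at 6.11 ± 0.48 (adjusted p = 2.05e-05). Batf, an AP-1 factor of TFH and effector Treg cells, measured 64499 and 61871 against 15976 and 16024 (1.98). Tox, an HMG-box factor, was close to this in shape, at 50382 and 50680 against 12010 and 12285, a log2 fold change of 2.06. For both genes the 2 replicates of each group were nearly equal. Hif1a, the oxygen-sensing factor, gave 35303 and 35903 against 5781 and 8977, and the vitamin D receptor Vdr gave 1653 and 1983 against 78.8 and 102 (4.34 ± 0.35, adjusted p = 2.52e-05). Tox2 was called at 908 and 452 against 210 and 146, but not without slide 4. Lef1, an HMG-box factor that promotes Bcl6 in TFH cells, moved the other way, at 3545 and 2369 in TFR against 10115 and 8939 in Treg cells (-1.71 ± 0.24).

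Several factors linked to TFH differentiation did not pass on the probe with the highest mean. Tcf7, the gene of TCF-1, measured 63178 and 66882 against 45029 and 63496, and Irf4 measured 7324 and 4501 against 5186 and 3270. Maf, which drives Il4 and Il21, gave 57245 and 63584 against 22369 and 28621 (1.25, adjusted p = 0.0538, and 0.0281 with slide as a block), while another of its probes was called at 1.97. Epas1, the HIF-2 alpha gene, likewise had 1 of 3 tested probes called, at 2.09. For Pou2af1, a coactivator abundant in B cells, the difference was 1.56 on slide 4 and 3.95 on slide 5 (adjusted p = 0.0897, and 0.0123 with slide as a block). Its levels were higher on slide 4 in both populations, as were the B cell markers. They were 52717 on slide 4 and 18083 on slide 5 in TFR cells and 17879 and 1166 in Treg cells. In PP TFH GL7+ cells Pou2af1 read 60943 and 37958, where the B cell markers summed to 42623 and 14782. The part of B cells in the Pou2af1 values was not tested.

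**Figure D3:**
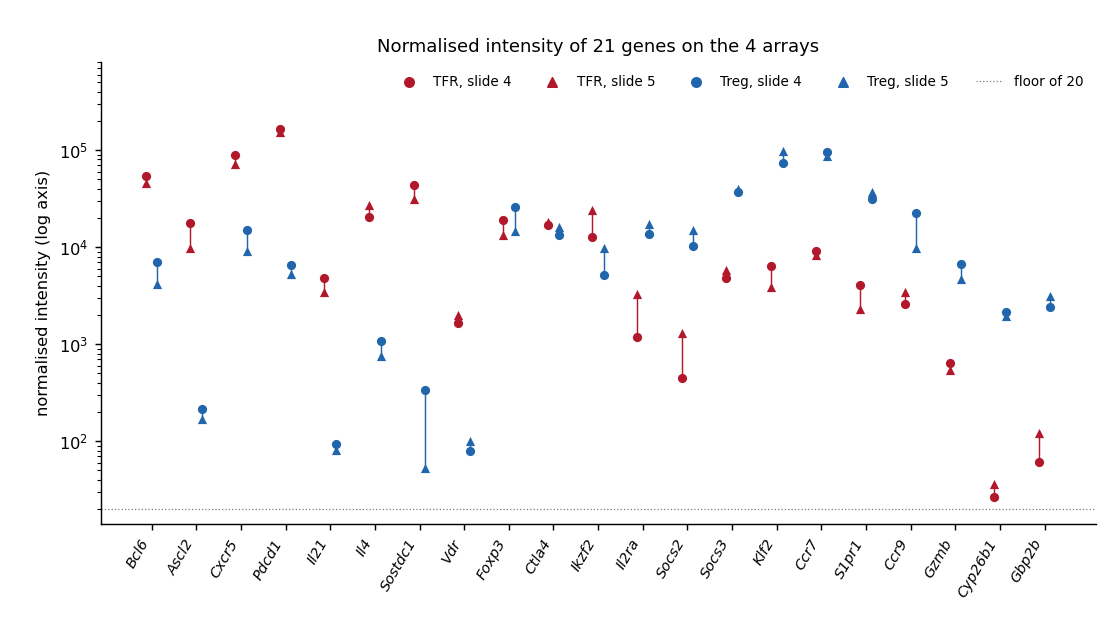
Normalised intensity (log axis) of 21 genes on the 4 arrays, TFR cells in red and Treg cells in blue, with circles for slide 4, triangles for slide 5 and a dotted line at the floor of 20. TFR and Treg points lie apart for genes such as Bcl6 and Ccr7, while those of Foxp3 overlap.

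Factors that oppose or restrain the follicular state fell or did not pass. Of 12 tested, 3 fell and 0 rose, with a median of -0.95. Klf2, which drives S1pr1 and keeps T cells circulating, measured 6452 and 3891 in TFR against 73713 and 96749 in Treg cells (-4.08 ± 0.45). Satb1, a chromatin organiser, was at 8846 and 8191 against 42396 and 33378 (-2.14). Bach2, a repressor that holds Treg cells in a resting state, was at 2136 and 877 against 5398 and 5561 (adjusted p = 0.00286), though not called without slide 5 or on its other probe (-1.22). Prdm1, the gene of Blimp-1 and a known antagonist of Bcl6, measured 640 and 1065 against 1629 and 1293 and did not pass (-0.81, adjusted p = 0.239). Foxp1, a quiescence factor, was at 5442 and 7066 against 10392 and 16660 (-1.09, adjusted p = 0.0572) and was called on 2 of its 3 other probes. With slide as a block 5 of the 12 were called, Foxp1 among them.

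The promoters of 5 genes on which these results turn are shown so that the start-proximal sequence can be read beside the values, Bcl6, Ascl2 and Vdr among the genes that rose and Socs3 and Cyp26b1 among those that fell, the latter 2 described further on. Each is the 250 bases before the RefSeq start in GRCm38.p6, all on the minus strand, 5′ to 3′, with capitals for matches on either strand to TTCNNNGAA (STAT), TTCCTNGAA (BCL6-type, which is contained in the STAT letters), CAGCTG and CAGGTG (E-boxes, which Ascl2 and E proteins bind), TGTTTAC (FOX) or GGGTGNGG (KLF).
Bcl6: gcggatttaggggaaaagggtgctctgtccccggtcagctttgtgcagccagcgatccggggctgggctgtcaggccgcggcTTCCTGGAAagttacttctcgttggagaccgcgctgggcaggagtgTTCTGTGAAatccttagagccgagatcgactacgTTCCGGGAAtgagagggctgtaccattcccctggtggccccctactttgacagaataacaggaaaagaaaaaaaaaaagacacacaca
Ascl2: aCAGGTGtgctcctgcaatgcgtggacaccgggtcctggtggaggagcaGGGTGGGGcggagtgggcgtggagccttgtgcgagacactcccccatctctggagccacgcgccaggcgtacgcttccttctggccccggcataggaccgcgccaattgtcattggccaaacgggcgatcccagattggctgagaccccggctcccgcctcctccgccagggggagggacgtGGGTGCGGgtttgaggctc
Vdr: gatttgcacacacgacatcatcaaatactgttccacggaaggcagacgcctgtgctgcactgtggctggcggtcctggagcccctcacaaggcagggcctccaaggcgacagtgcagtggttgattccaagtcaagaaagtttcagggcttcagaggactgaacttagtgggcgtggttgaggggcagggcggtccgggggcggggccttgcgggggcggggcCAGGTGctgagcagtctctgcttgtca
Socs3: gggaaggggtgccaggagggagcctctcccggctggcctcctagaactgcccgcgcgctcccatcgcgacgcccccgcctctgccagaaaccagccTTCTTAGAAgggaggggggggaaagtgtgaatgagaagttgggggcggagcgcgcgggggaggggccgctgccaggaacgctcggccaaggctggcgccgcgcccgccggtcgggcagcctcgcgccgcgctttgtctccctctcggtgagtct
Cyp26b1: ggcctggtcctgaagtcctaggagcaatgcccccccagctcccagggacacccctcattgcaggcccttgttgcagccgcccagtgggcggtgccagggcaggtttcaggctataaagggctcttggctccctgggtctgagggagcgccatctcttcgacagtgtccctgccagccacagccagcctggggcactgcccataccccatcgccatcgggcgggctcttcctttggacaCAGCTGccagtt

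In the Bcl6 window, at chr16:23981284-23981533, the letters TTCNNNGAA occur 3 times, starting 168, 122 and 88 bases before the start. The first of them also spells the BCL6-type letters. Of the 2 windows listed for Bcl6, the one shown was picked for its number of matches. The Ascl2 window (chr7:142969265-142969514) has CAGGTG 249 bases before the start and KLF letters at 201 and 19 bases. The Vdr window (chr15:97908297-97908546) has CAGGTG at 27 bases, the Socs3 window (chr11:117969367-117969616) TTCNNNGAA at 154 bases and the Cyp26b1 window (chr6:84593811-84594060) CAGCTG at 12 bases. Such letters are common. Over windows from 250 bases before to 50 after the start, TTCNNNGAA was found in 9.55% of all 27025 genes, in 7.67% of 886 genes called higher and in 9.78% of 409 called lower. CAGGTG was found in 22.6% of all genes, 25.7% of those called higher and 21.8% of those called lower, and CAGCTG in 18.3%, 21.6% and 21.8%. The BCL6-type letters were in 1.86% of all genes, 1.47% of those called higher and 3.91% of those called lower, the last being 16 genes. KLF letters were in 18.4%, 25.7% and 25.9%, against 22.4% of the 10988 tested genes, and FOX letters in 4.05%, 3.16% and 4.89%. These shares are descriptions with no test, and a match is not evidence of binding.

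**Figure D4:**
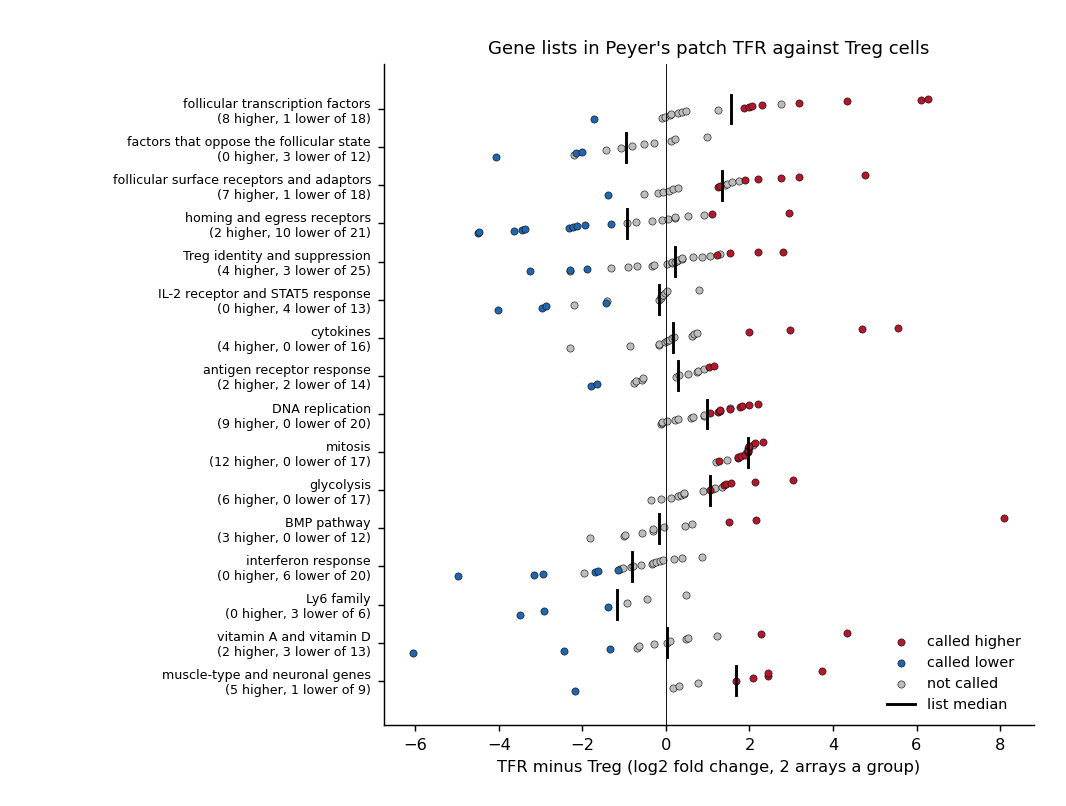
Log2 fold change of TFR over Treg cells for the tested members of each gene list, 1 point a gene, called genes in red (higher) or blue (lower) and others in grey, with the list's median as a bar. The follicular, mitosis and glycolysis lists lie mostly above 0, the homing and interferon lists mostly below.

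Among 18 follicular surface receptors and adaptors, 7 rose, 1 fell and 10 did not pass, with a median of 1.35. Pdcd1 rose from 6517 and 5300 to 166512 and 155321, which the gate fixed. Cxcr5, the receptor for the follicular chemokine CXCL13, was not part of the gate and measured 88179 and 72183 against 15156 and 9071 (2.77 ± 0.33, adjusted p = 0.000253). Sh2d1a, the gene of the SLAM adaptor SAP needed for stable contact with B cells, was at 65601 and 86319 against 17088 and 24288 (1.89). All TFR values lay above all Treg values in each of these genes. Of the 7, 4 encode inhibitory receptors besides PD1. Tigit measured 22671 and 20152 against 2793 and 1956 (3.19), Cd160 3099 and 3759 against 854 and 639 (2.21), Btla 14047 and 15672 against 5861 and 6695 (1.24), and Lag3 19150 and 20944 against 9291 and 7131 (1.30). The call of Lag3 ended without either slide, and those of Tigit and Cd160 without slide 5. Il6ra, the IL-6 receptor chain, fell, at 9180 and 8661 against 21186 and 25984 (-1.40), a call lost without either slide. Icos, the costimulatory receptor, measured 156750 and 115874 against 59178 and 41053 and did not pass on this probe (1.45, adjusted p = 0.0763), whereas with slide as a block its adjusted p was 0.00371, and another of its probes was called at 1.68. S1pr2, which confines cells to the follicle, was also called with the block, at 1104 and 1980 against 414 and 747 (1.41). In all, 12 of the 18 were called with the block.

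Of 21 tested receptors for homing and egress, 10 were lower, 2 were higher and 9 did not pass, with a median of -0.93. Those that bring cells into lymphoid tissue and let them leave it were among the most reduced. Ccr7, the T zone receptor, measured 9087 and 8321 against 94490 and 87307 (-3.38 ± 0.33). S1pr1, the egress receptor, was at 4105 and 2304 against 31030 and 36634 (-3.45 ± 0.31, adjusted p = 4.08e-05). The Treg replicates lay close together in Ccr7, and the lower TFR value of S1pr1 was that of slide 5. Ccr9, the gut receptor for CCL25, was at 2589 and 3483 against 22494 and 9905 (-2.31), and Cxcr3, the TH1-type receptor, at 2054 and 2751 against 13149 and 9490 (-2.23, adjusted p = 0.0479). Ccr2, detected on 1 of 2 TFR arrays, measured 22.6 and 49.8 against 556 and 1027. Selplg, the P-selectin ligand, was at 14564 and 12259 against 64922 and 40337, and Itga6, an integrin chain, at 2662 and 2323 against 12076 and 9942, with its other probe near 0 (-0.08, not called). In contrast, Ccr8, a receptor of effector Treg cells, rose from 1266 and 584 to 9739 and 4454 (2.94, adjusted p = 0.0103), and Gpr15, a large-intestine receptor, from 1135 and 785 to 2117 and 1954 (1.11). Both rises, and the falls of Ccr2 and Cxcr3, were not called with either slide left out, and that of Ccr9 was not called without slide 4, so that 6 lower and 0 higher were left in each case. Itgb7, the integrin chain of gut homing, measured 28210 and 35675 against 67085 and 54494 and did not pass (-0.93, adjusted p = 0.0526).

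Both populations were sorted as GFP+, so the gate fixed that Foxp3 was high in both. Foxp3 measured 19242 and 13409 in TFR cells and 26173 and 14718 in Treg cells, a difference of -0.29 ± 0.34 (adjusted p = 0.716), while PP TFH GL7+ cells, which are GFP-, stood at 40.7 and 38.9. Of 25 genes of Treg identity and suppression, 4 were higher, 3 lower and 18 did not pass, with a median of 0.21. Ctla4, an inhibitory receptor of Treg cells, was at 16762 and 18275 against 13224 and 15945 (0.27), and Tnfrsf18, GITR, at 48044 and 87062 against 40767 and 60943 (0.38). The TFR and Treg ranges of Foxp3 overlapped, and those of Tnfrsf18 did so too. Ikzf2, the gene of Helios, gave 12706 and 23894 against 5202 and 9724 (1.29, adjusted p = 0.103), with differences of 1.29 and 1.30 on slides 4 and 5 and a call with slide as a block (adjusted p = 0.0143).

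Molecules through which Treg cells act moved in both directions. Gzmb, granzyme B, fell from 6765 and 4695 to 646 and 536 (-3.26 ± 0.50, adjusted p = 0.00129), and Entpd1, the ectoenzyme CD39, from 257 and 436 to 42.0 and 110 (-2.30). Both calls ended without slide 4. Itgb8, an integrin chain that activates TGF-beta, was not well above background on either Treg array and measured 119 and 161 in TFR cells, at least 4.09-fold higher (adjusted p = 1.92e-05). Ebi3, an IL-35 and IL-27 subunit, rose from 7588 and 4755 to 13640 and 22091 (1.53), Areg, the repair factor amphiregulin, from 49.4 and 85.1 to 175 and 513 (2.21) and Tnfrsf9, 4-1BB, from 14969 and 12399 to 27280 and 36936 (1.22). These 3 rises were lost without slide 5, and that of Tnfrsf9 also without slide 4. The second probe of Tnfrsf9 was not called (0.43). Gpr83, a receptor enriched in Treg cells, was at 255 and 621 against 965 and 2279 (-1.90, adjusted p = 0.0408), a call lost without either slide. Il10 measured 463 and 1345 in TFR against 4527 and 3338 in Treg cells and did not pass (-2.30, adjusted p = 0.0750), with a difference of -3.29 on slide 4 and -1.31 on slide 5 and a call with slide as a block (adjusted p = 0.0361).

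Of 13 tested genes of the IL-2 receptor and the STAT5 response, 4 fell (Il2ra, Socs1, Socs2 and Socs3), 0 rose and 9 did not pass, with a median of -0.16. Il2ra, CD25, measured 1191 and 3268 against 13579 and 17257 (-2.96 ± 0.67, adjusted p = 0.0131), and was not called without slide 4. The other chains did not pass, with Il2rb at 53818 and 36685 against 61421 and 38028 (-0.12) and Il2rg at 64752 and 69485 against 62583 and 68563 (0.03). The 3 SOCS genes, which encode inhibitors of cytokine receptor signalling, were lower on both slides. Socs2 was at 445 and 1309 against 10291 and 14983 (-4.02 ± 0.47), and Socs3, whose promoter is printed above, at 4755 and 5828 against 37093 and 39354 (-2.86 ± 0.32, adjusted p = 0.000154). Socs1 was at 6626 and 7957 against 20656 and 18931 (-1.45). Cish, a STAT5 target of the same family, measured 2455 and 9752 against 20004 and 25149 without passing (-2.20, adjusted p = 0.0686), and Bcl2, a survival gene, 3152 and 1515 against 7611 and 4454 (-1.41, adjusted p = 0.0840). Both were called with slide as a block, at adjusted p of 0.00955 and 8.37e-05.

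Cytokines of helper cells were measured in TFR cells. Of 20 genes, 16 were tested, and 4 rose while 0 fell. Il21, which drives germinal centre B cells, measured 4759 and 3489 against 92.8 and 81.6 (5.55 ± 0.37, adjusted p = 8.69e-06). Il4, the type 2 cytokine of follicular helper cells, was at 20574 and 27193 against 1085 and 762 (4.70 ± 0.63, adjusted p = 0.000544). In PP TFH GL7+ cells the same probes read 17168 and 15163 for Il21 and 41018 and 40009 for Il4, so the TFR arrays lay between Treg and TFH cells. Il13 and Il6 were not well above background on either Treg array and read 115 and 216, and 60 and 104, in TFR cells, at least 4.66-fold (adjusted p = 0.00689) and at least 2.33-fold (adjusted p = 0.0186) higher. The calls of Il4, Il13 and Il6 were lost without slide 5, which left Il21, and that of Il13 was also lost without slide 4. Ifng, the TH1 cytokine, was at 79.0 and 173 against 77.8 and 136, and Tgfb1 at 14466 and 10467 against 13983 and 8951, and neither passed.

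Genes induced by the antigen receptor gave no common direction. Of 14 tested, 2 rose and 2 fell. Dusp6, an ERK phosphatase, was at 11521 and 10674 against 5006 and 5046 (1.14 ± 0.18), whereas its relative Dusp5 was at 345 and 422 against 1416 and 1256 (-1.81 ± 0.19). Myc, the growth regulator, fell from 13057 and 17723 to 4371 and 5376 (-1.65 ± 0.31, adjusted p = 0.00423). Dusp4 was called at 507 and 556 against 252 and 267 (1.04), a call that ended without either slide, and the call of Dusp6 ended without slide 4. Egr2 passed the adjusted p but not the fold limit, at 7500 and 11723 against 4442 and 5644 (0.91, adjusted p = 0.0162). Nr4a1, an immediate marker of receptor signalling, was at 18264 and 18055 against 31610 and 23452 and did not pass (-0.58, adjusted p = 0.0819).

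In the mitosis list 12 of 17 tested genes rose, 0 fell and 5 did not pass, with a median of 1.96, and all 17 were higher on both slides. Mki67, the proliferation marker Ki-67, measured 4542 and 4524 against 1368 and 596 (2.33 ± 0.53, adjusted p = 0.0131). Bub1b, a spindle checkpoint kinase, was at 1438 and 912 against 448 and 192 (1.97), and Kif20a, a motor protein of cytokinesis, at 3024 and 1975 against 1079 and 498 (1.74). The median difference was 1.46 on slide 4 and 2.36 on slide 5, and in all 3 genes the Treg value was lower on slide 5. Of 20 tested genes of DNA replication, 9 rose and 0 fell, with a median of 0.99. Rrm2, which makes deoxyribonucleotides, was at 15109 and 10130 against 5669 and 2180 (1.82), Mcm6, a helicase subunit, at 63913 and 45494 against 30340 and 16807 (1.26), and Gins1, a replisome subunit, at 976 and 1072 against 457 and 381 (1.29). Pcna, the sliding clamp, differed little, at 15304 and 18200 against 15462 and 20606 (-0.10). These counts depended on slide 5. Without slide 4, 9 mitosis and 8 replication genes were called, and without slide 5, 0 and 1, while with slide as a block the counts were 16 and 10. With only the PP arrays in the fit 3 of each list were called. Markers of germinal centre B cells, a dividing population, summed to 11090 and 3896 in TFR and 4841 and 1071 in Treg cells. That marker list includes S1pr2, counted above as a follicular receptor, at 1104 and 1980 in TFR and 414 and 747 in Treg cells. The median of the marker list was 2043 and 52.5 in TFR and 368 and 73.2 in Treg cells. The part of germinal centre B cells in these counts was not tested.

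Glycolysis genes rose in part. Of 17 tested, 6 were higher and 0 lower, with a median of 1.06 and nearly equal medians on slides 4 and 5 (0.973 and 0.975). Aldoc, an aldolase, measured 11314 and 10927 against 1681 and 1083 (3.04 ± 0.24, adjusted p = 2.08e-05). Tpi1, triosephosphate isomerase, was at 103072 and 60871 against 23739 and 13787 (2.13 ± 0.37), and Pgam1, a phosphoglycerate mutase, at 75229 and 71779 against 28385 and 27440 (1.40 ± 0.13). The phosphofructokinase genes Pfkl and Pfkp were called at 1.55 and 1.44. Gapdh was called at 330453 and 326232 against 168333 and 147627 (1.06), just past the fold limit, and lost the call without slide 5 and with scaling to the 75th percentile in place of quantile normalisation, where its difference was 0.38. Of its 6 other tested probes, 3 were not called. Aldoa, Pkm and Pgk1 moved by similar amounts without passing (1.34, 1.17 and 1.12, adjusted p = 0.0575, 0.0704 and 0.0710), and all 3 were called with slide as a block, which called 9 of the list. Ldha, which makes lactate, differed by 0.43, and Slc2a1, the glucose transporter GLUT1, was at 10711 and 17058 against 8491 and 11970 (0.42, adjusted p = 0.506).

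In the BMP pathway the largest change of the whole comparison stood beside genes that did not pass. Of 12 tested, 3 rose and 0 fell, with a median of -0.17. Sostdc1, a secreted antagonist of BMP and Wnt signals (probe at chr12:37044532-37044591, mm9), measured 43577 and 31136 in TFR cells and 338 and 53.0 in Treg cells, 8.11 ± 0.76 on the log2 scale (adjusted p = 5.34e-05). The difference was 7.01 on slide 4 and 9.20 on slide 5, the gap between slides coming from the Treg arrays. Bmp7, a ligand that Sostdc1 can bind, was at 5644 and 7023 against 2535 and 1951 (1.5, adjusted p = 0.0247), a call lost without either slide. Acvr1, a type I BMP receptor, was at 297 and 338 against 68.8 and 73.3 (2.16 ± 0.27). Id1, a usual target of BMP signals, stood at 120 and 109 against 128 and 108 (-0.04 ± 0.37, adjusted p = 0.982), and Smad7, a feedback inhibitor, was at 244 and 741 against 991 and 2273 (-1.82, adjusted p = 0.194), and was called with slide as a block (adjusted p = 0.000281).

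Of 20 tested interferon-response genes, 6 fell, 0 rose and 14 did not pass, with a median of -0.81, and 17 were lower on both slides. Gbp2b, an interferon-induced GTPase, measured 61.9 and 123 against 2435 and 3111 (-4.98 ± 0.29, adjusted p = 4.06e-06). Usp18, which removes ISG15, was at 390 and 353 against 2894 and 2854 (-2.95), and Ifit3 at 342 and 139 against 1869 and 2065 (-3.17). Both were lost without either slide, and the list then held 2 calls without slide 4 and 3 without slide 5. Isg15 itself was at 19101 and 18399 against 21682 and 19682 (-0.14). Of 6 tested Ly6 genes, 3 fell. Ly6a, also called Sca-1, was at 10226 and 3470 against 45885 and 43540 (-2.91), Ly6c1 at 11175 and 4234 against 78234 and 77813 (-3.50) and Ly6k at 1506 and 1295 against 3513 and 3849 (-1.40), the last not called without slide 5. Ly6d, which B cells express, went in opposite directions on the slides, at 24417 and 221 against 18475 and 1066.

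Of 13 tested genes of vitamin A and vitamin D handling, 2 rose, 3 fell and 8 did not pass. Cyp26b1, the enzyme that degrades retinoic acid (probe at chr6:84521952-84522011, mm9), was at 2133 and 1964 in Treg cells and at 26.6 and 35.9 in TFR cells, where it was detected on 1 of 2 arrays (-6.05 ± 0.17, adjusted p = 1.49e-08). The retinoic acid receptors fell with it, Rara from 4914 and 4100 to 836 and 822 (-2.44 ± 0.19) and Rarg from 5855 and 5894 to 2290 and 2370 (-1.33 ± 0.19). Replicates of each group lay within a narrow range in all 3 genes. Cyp26b1 stood at the floor of 20 in PP TFH cells and in pLN TFR, TFH and naive cells of day 12. Groups at the floor add no spread to the fit, so its standard error and adjusted p depend on that floor. Vdr, given above, rose. Asb2, a retinoic acid-induced ubiquitin ligase subunit, rose on 1 probe, at 24054 and 27504 against 6205 and 4605 (2.27, adjusted p = 0.0164), but not on the other (-0.26), and the call was lost without either slide. Crabp2, a retinoic acid carrier, was at 5594 and 2114 against 2368 and 918 and did not pass (1.22, adjusted p = 0.294), but was called with slide as a block (adjusted p = 0.00124). Dhrs3, a retinal reductase, was at 10793 and 15052 against 9230 and 8917 (0.49, adjusted p = 0.114).

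Muscle-type and neuronal genes were measured in the TFR arrays. Of 9 tested, 5 rose and 1 fell, with a median of 1.67. The study had picked Actg2, Penk, Nrn1 and Smtn from these same arrays, so these counts are a description. Actg2, a smooth muscle actin, measured 7568 and 8928 against 732 and 522 (3.73 ± 0.32, adjusted p = 3.36e-05). Penk, the precursor of enkephalin peptides, was at 33683 and 59420 against 8987 and 7585 (2.44), and Nrn1, neuritin, at 5690 and 7500 against 1286 and 1105 (2.45). Smtn, smoothelin, was at 1132 and 924 against 323 and 182 (2.08). Dbh, which makes noradrenaline, read 55.7 and 72.7 and was not well above background in Treg cells, at least 1.88-fold higher (adjusted p = 0.00242). Cnn3, a calponin, fell, at 1645 and 268 against 3081 and 2892 (-2.17, adjusted p = 0.0390), most of it from the slide 5 TFR array. Without slide 5 only the call of Actg2 was left.

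Across all tested genes, the 12 with the largest rises and the 12 with the largest falls were taken from those that differed by at least 1 on both slides. Krt17, a keratin, measured 2661 and 2629 in TFR cells and was not well above background in Treg cells, at least 78.1-fold higher (adjusted p = 1.62e-05). Reep1, a protein that shapes the endoplasmic reticulum, read 1972 and 1815, at least 55.9-fold higher, and Ecel1, a membrane peptidase, 1821 and 1769, at least 45.6-fold higher. Stc2, a secreted glycoprotein, read 1105 and 1010, at least 31.2-fold higher. In these 4 genes the TFR replicates were nearly equal. C3, the complement component, was at 12305 and 7417 against 613 and 48.7 (5.79), and Mei1, a meiosis gene, at 1731 and 1726 against 57.7 and 20.4 (5.65). Slc7a10, an amino acid transporter, was at 14942 and 19558 against 276 and 220 (6.12), and was not called without slide 5. Cebpa, a C/EBP factor of myeloid cells and adipocytes, was at 41597 and 21442 against 635 and 231 (6.29 ± 0.65, adjusted p = 9.79e-05).

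On the Treg side, Chil5, a chitinase-like protein, was not well above background in TFR cells and read 984 and 1496 in Treg cells, at least 47.8-fold higher there (adjusted p = 1.76e-05). Drc1, an axonemal dynein regulator, read 594 and 781 in Treg cells, at least 27.4-fold higher there. Gata1, best known from red cell and mast cell precursors (probe at chrX:7536392-7536451, mm9), was at 3869 and 6106 in Treg and 179 and 314 in TFR cells (-4.36 ± 0.41, adjusted p = 5.27e-05). Its difference was -4.43 on slide 4 and -4.28 on slide 5, whereas the erythroid genes Hba-a1 and Hbb-bt differed by -0.69 and -0.82 on slide 4 and by -4.04 and -4.79 on slide 5 and were not called, and Epb42 stood at the floor on all 4 arrays. Kbtbd11 measured 232 and 350 against 4820 and 7812 (-4.43), and Igfbp4, an IGF-binding protein, 109 and 119 against 1736 and 3221 (-4.38). Ifit1bl1, related to the interferon-induced Ifit genes, was at 220 and 227 against 5601 and 4918 (-4.56), and Gm11346 at 231 and 213 against 3931 and 7626 (-4.63).

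Whether the difference between TFR and Treg cells was of another size in PP than in peripheral lymph nodes (pLN) was tested as a difference of differences against the TFR and Treg cells of pLN 12 days after immunisation with KLH in alum, 2 arrays a group. Tissue, immunisation and slide cannot be told apart here. The test called 139 probes (0.624%), 89 (0.4%) with a difference more positive in PP and 50 (0.225%) more negative. The count was 1024 (521 and 503) with slide as a block, 21 with only the compared groups, 52 without slide 4 and 66 without slide 5. It was 48 and 77 without pLN TFR replicates 1 and 2, 76 and 56 without pLN Treg replicates 1 and 2, and 67 without PP Treg replicate 1. Of the 2184 probes called in PP, 92.8% had the same sign in pLN, against 71.1% of the probes not called. Among list members Cyp26b1, Itgb8, Ascl2, Dusp6, Rara and Rarg were called by this test. In pLN, Cyp26b1 stood at 20 and 20 in TFR and 31.5 and 24.5 in Treg cells, so its high level was that of the PP Treg arrays (tissue difference -5.57, adjusted p = 1.63e-06). The difference of Rara was -0.64 in pLN and -2.44 in PP (tissue difference -1.79, adjusted p = 0.0133), and that of Rarg 0.15 in pLN (tissue difference -1.48, adjusted p = 0.0372). Ascl2 measured 1351 and 864 in TFR against 309 and 227 in Treg cells of pLN, a difference of 2.03 against 6.11 in PP (tissue difference 4.08, adjusted p = 0.0229). At day 12 Dusp6 had opposite signs, with -0.51 in pLN and 1.14 in PP (adjusted p = 0.0134). Itgb8 differed by 0.41 in pLN (tissue difference 2.38, adjusted p = 0.00608). TFR and Treg cells of pLN 25 days after immunisation had 1 array each and did not enter the difference tested. There TFR minus Treg was 0.29 for Dusp6, 1.94 for Itgb8, 2.24 for Ascl2 and -2.13 for Cyp26b1.

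Genes outside the lists were called by this test as well. Where groups stood at or near the floor of 20, the size, standard error and adjusted p of the difference depend on that floor. Ntrk3, the receptor of neurotrophin-3, measured 674 and 614 in PP TFR cells and was not well above background in PP Treg cells, at 35.2 and 36.1, while in pLN it read 25.9 and 20.2 in TFR and 49.6 and 25.4 in Treg cells. Its rise in PP was at least 16.7-fold (adjusted p = 1.76e-05). Fabp7, a fatty acid-binding protein, read 443 and 381 in PP TFR cells and 20 on both PP Treg arrays and all 4 pLN arrays of day 12. Igf2bp2, an mRNA-binding protein, was at 1004 and 669 against 56.6 and 77.2 in PP, and at 89.6 and 56.1 against 144 and 112 in pLN. Lmna, the gene of lamin A and C, went in opposite directions, at 130 and 66.8 against 848 and 595 in PP and 3109 and 2014 against 1023 and 917 in pLN (tissue difference -4.30, adjusted p = 0.00684). In neither tissue did the TFR and Treg values of Lmna overlap. In pLN at day 25, with 1 array a group, TFR minus Treg was -1.12 for Ntrk3, 2.12 for Fabp7, 0.76 for Igf2bp2 and 1.38 for Lmna. Of the 14 genes named by rule for this test, Cyp26b1, Fabp7, Lmna, Rbm24 and Peli2 were called both without slide 4 and without slide 5, Ntrk3 and Itgb8 only without slide 5, and the other 7 under neither. Bcl6 differed by 3.19 in PP and 1.28 in pLN, and this gap did not pass (1.91, adjusted p = 0.103). The same held for Klf2 (-2.70, adjusted p = 0.104) and Gzmb (-3.09, adjusted p = 0.0952). On simulated data this test recovered 50% of changes of 2 and 77% of changes of 3, so gaps of this size can be missed. Mitosis genes had a median of 1.96 in PP and 2.93 in pLN, with 0 of 17 called by the test of the difference.

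**Figure D5:**
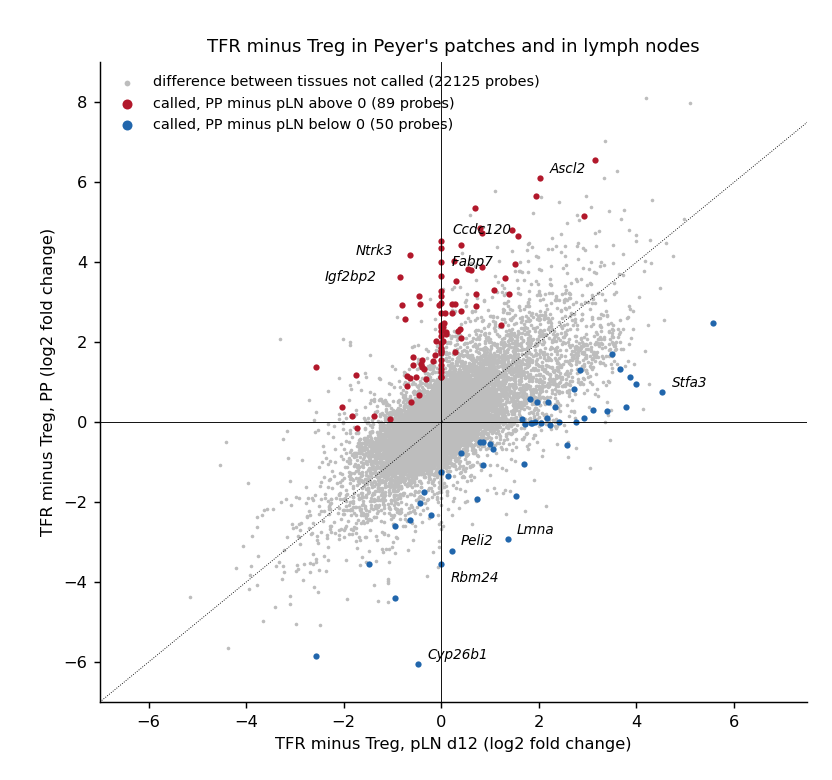
TFR minus Treg log2 fold change in pLN at day 12 (x axis) against PP (y axis) for each tested probe, with the 89 probes called above 0 and the 50 called below 0 by the test of the difference in red and blue and equality as a dotted line. Ascl2 and Ntrk3 lie above the diagonal and Cyp26b1 and Lmna below it.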

How the data were processed

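Sorted T cell RNA was hybridised to single-colour arrays, and the deposited scanner intensity of each feature came from Agilent Feature Extraction 10.7.3.1, per the labels, with signals already background-subtracted; the deposited value table holds the intensity that the authors averaged over on-chip features and normalised. Here values were rebuilt from the scanner files by the study's steps. These were the geometric mean of up to 4 features (without outlier marks, values beyond 1.42 interquartile ranges or a pixel CV above 0.5), quantile normalisation, a 75th percentile of 1500 and a floor of 20. Detection required 3 of 4 features well above background. Log2 values of the 22264 detected probes among 39429 were fitted with limma 3.58.1 (R 4.3.3) with 1 mean for each of 12 groups over 20 arrays (8 residual degrees of freedom) and Benjamini-Hochberg adjustment. Probes have mm9 coordinates, and 27592 were named through RefSeq accessions. Where every array of a group was below background, a fold is given as a bound, from the bright group's mean against the higher of the dim value and the lowest detected signal on each array.

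The labels give no replicate numbers, so replicates were numbered in accession order and paired by slide as the scanner files show. The slide 4 minus slide 5 differences of TFR and Treg cells correlated with r = 0.866 across tested probes. Series notes state 2 independent PP experiments. The main fit has no term for slide, so its p-values measure the spread between arrays of a group, in which pool, slide and input RNA differ together. Members and gene lists were chosen with earlier results of these data known. Named genes are list members by their brightest probe, the 12 largest rises and falls past 1 on both slides, and the 5 largest tissue differences each way. On simulated data with 200 changed probes the fit recovered 41% at a log2 change of 1.5, 72.5% at 2 and 90.5% at 3 for TFR against Treg. For the tissue difference it recovered 9%, 50% and 77% at the same sizes. The simulated arrays varied independently, without the slide difference that TFR and Treg cells share here. Alternatives covered the samples, slide, input, scaling, background, filter and moderation. Some members counted in the lists are not reported here by name.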

Additional observations from a re-analysis of the deposited data

Results flagged for a closer look

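For 14 genes the TFR minus Treg difference was not the same in PP and in pLN at day 12 by the test of the difference itself, and each is given here as PP minus pLN on the log2 scale with its standard error. For Ntrk3, Ccdc120, Fabp7, Rbm24, Itgb8, Cyp26b1, Stfa3 and Peli2, groups at or near the floor of 20 enter the difference. Its size, standard error and adjusted p then depend on the floor and give no order among genes. Ntrk3 stood at 4.81 ± 0.45 (adjusted p = 0.000925). Ccdc120 stood at 4.53 ± 0.64, with 496 and 429 in PP TFR cells and 20 on the PP Treg arrays and all 4 pLN arrays of day 12. Igf2bp2 stood at 4.47 ± 0.62, Fabp7 at 4.36 ± 0.40 and Ascl2 at 4.08 ± 0.68. The integrin gene Itgb8 stood at 2.38 ± 0.31 and the phosphatase gene Dusp6 at 1.65 ± 0.25.

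Among negative values, Cyp26b1 stood at -5.57 ± 0.24 (adjusted p = 1.63e-06), and the other retinoic acid genes were Rara at -1.79 ± 0.27 and Rarg at -1.48 ± 0.27. Lmna stood at -4.30 ± 0.57, with opposite signs in the tissues. Stfa3, a stefin protease inhibitor, stood at -3.78 ± 0.70 and was 393 and 815 in pLN TFR cells against 27.4 and 21.8 in pLN Treg cells, while PP TFR cells had 45.8 and 63.2 and PP Treg cells 26.3 and 38.7. Rbm24, an RNA-binding protein, stood at -3.55 ± 0.27, with 267 and 206 in PP Treg cells and the floor of 20 on all other arrays of the test. Peli2, a ubiquitin ligase of Toll-like receptor signalling, stood at -3.43 ± 0.42. Tissue, immunisation and slide cannot be told apart in any of these values.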

How the results depend on the processing

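No named gene that was called in PP changed sign under any alternative run, whereas uncalled genes near 0 such as Foxp3 did. For PP TFR against PP Treg, 2184 probes were called, and 0 with only the compared groups in the fit (3502 at an unadjusted p under 0.05), 2 by the methods' t-test after adjustment (2925 unadjusted), 1434 without slide 4 and 1009 without slide 5, of which 1237 and 918 were shared with the 2184. In the last pair of fits each PP group has 1 array, assumed to vary like the other groups. Counts lay between 1754 and 3117 under the other settings, and leaving out single arrays gave 1470 to 2079. With slide as a fixed block, the paired fit, 3082 were called. For the tissue difference, 139 were called, and 21 with the compared groups only, 1024 with slide as a fixed block, the paired fit (replicate block), 1098 with slide as a random block, 608 with RNA input as a covariate, 52 without slide 4 and 66 without slide 5, with 48 to 103 when single arrays were left out. The cause of these shifts was not tested, beyond the smaller number of arrays. Of the 24 leading genes, 23 were called without slide 4 (not Ccr2), 22 without slide 5 (not Slc7a10 and Ccr2) and 0 in the compared groups only or by the t-test. Scaling to the 75th percentile without quantile normalisation gave 2204 calls, 1390 of them higher, and the authors' values gave 2220. With the PP arrays and slide as a block 2996 were called, and with the spread moderated over all probes 2053, settings chosen after seeing the data, as were the counts of list members by slide. For probes near the floor of 20 the array limits what can be measured, and 352 called probes had Treg cells and 56 had TFR cells below background on both arrays.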

Other observations

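Cebpa and Slc7a10, both among the largest rises, have their probes next to each other on chromosome 7 (mm9), at 35906517 and 35985868. Of their neighbours, Lrp3, a lipoprotein receptor relative whose probe begins at 35986277, was called on 1 of 2 probes, at 126 and 118 in TFR cells and 20 and 20 in Treg cells (adjusted p = 0.00237), and Kctd15 was called at 178 and 249 against 54.7 and 37.7 (2.21). Cep89 was called on 1 of 2 probes (1.13). Cebpg and Pepd, on the other side of Cebpa, were not called, at 0.15 and 0.28 on the log2 scale. These genes were chosen for their position after the values were seen.

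Some differences appeared on a single slide. On slide 5, 85 probes of 40 genes were at least 4-fold lower in TFR than in Treg cells while differing by less than 2-fold on slide 4, and 8 of them were called. The reverse, lower on slide 4 alone, held for 13 probes. Of the 85, 48 were at least 4-fold higher on slide 4 than on slide 5 in both populations. The 85 probes included those of Hba-a1, at 16353 and 70.2 in TFR and 26293 and 1153 in Treg cells, and Bank1, a B cell adaptor, at 1752 and 42.4 against 1491 and 528. Cd55, which protects cells from complement, was another, at 622 and 120 in TFR against 1198 and 1890 in Treg cells.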
